A study of Homo sapiens with 8 samples.

Results

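The genes described are CIITA and 9 genes of HLA class II antigen presentation: HLA-DRA, HLA-DRB1, HLA-DPA1, HLA-DPB1, HLA-DQA1, HLA-DQB1, HLA-DMA, HLA-DMB and CD74. They were taken by symbol from the deposited table, and they are 10 genes of 63129 rows. Together 60 rows carry one of these symbols, because the annotation repeats the HLA region on alternate haplotypes, and 50 of those rows are listed at 0 in every library. The 10 rows with values, 1 per gene, all passed the filter of a mean of at least 1 RPKM, a read density that is scaled to gene length and to the mapped reads of a library. The genes were listed with their values in these libraries known, so their levels and differences are given as a description, without p-values. CIITA was 3.91-fold lower than its DMSO with SGC-CBP30 and 5.53-fold lower with CPI203. The 9 other genes were 1.29-fold (CD74) to 2.01-fold (HLA-DMB) lower with SGC-CBP30, and with CPI203 they were at 78.3% (HLA-DMB) to 103% (CD74) of their DMSO level. All 10 were also lower in the DMSO-treated cells of the CPI203 experiment than in those of the SGC-CBP30 experiment.

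All libraries come from 1 human cell line, LP-1, which was established from a multiple myeloma, a tumor of plasma cells, and was treated for 6 hr. The 8 RNA-seq libraries form 2 experiments of 4. One holds 2 libraries with 2.5 μM SGC-CBP30, an inhibitor of the bromodomains of the coactivators CBP and EP300, and 2 with DMSO, the solvent. The other holds 2 libraries with 250 nM CPI203, an inhibitor of the bromodomains of the BET family, and 2 with DMSO. Which DMSO pair belongs to which compound was read from the naming series of the libraries. The doses differ and each compound has its own controls, so compounds were compared through the difference from the DMSO of the same experiment. The replicates are called biological in the study's text, but nothing says that they are separate cultures, so every error and p-value measures the spread between these libraries only.

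HLA class II molecules are pairs of an alpha and a beta chain that show peptides from the endosomal pathway to CD4+ T cells. CIITA is the master coactivator of these genes: it does not bind DNA itself, but docks on RFX, CREB and NF-Y factors that occupy the X and Y boxes of each class II promoter, and it recruits histone acetyltransferases such as CBP and EP300. CIITA is active in B cells and is typically silenced as they become plasma cells, where BLIMP-1, the product of PRDM1, represses it. CD74, the invariant chain, holds new class II molecules until HLA-DM exchanges its remnant for a peptide.

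Letters of these boxes can be read in several of the promoters. In the promoter table made from RefSeq on GRCh38.p14, 8 of the 10 genes had an entry, and CIITA and HLA-DRA had none. The 250 bases before each start were searched on both strands for a core of the X box, ACNGATG, and a core of the Y box, ATTGG, patterns that do not overlap each other. They were chosen with these promoters in view. The 4 genes shown, 5′ to 3′, held both with 22 to 55 bases between them. The X box match and then the nearest exact Y box match after it are in capitals.

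HLA-DRB1: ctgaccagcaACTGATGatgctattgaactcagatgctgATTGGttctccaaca
HLA-DQB1: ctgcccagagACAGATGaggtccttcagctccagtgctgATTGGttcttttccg
HLA-DMA: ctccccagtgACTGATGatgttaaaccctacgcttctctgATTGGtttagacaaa
HLA-DMB: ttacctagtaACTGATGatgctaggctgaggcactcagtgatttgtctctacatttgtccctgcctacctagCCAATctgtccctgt

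The stretches lie on the minus strand of chromosome 6, at chr6:32589880-32589933 for HLA-DRB1, chr6:32666731-32666784 for HLA-DQB1, chr6:32953162-32953216 for HLA-DMA and chr6:32941036-32941122 for HLA-DMB. Between the matches lie 22 bases in HLA-DRB1 and HLA-DQB1, 23 in HLA-DMA and 55 in HLA-DMB, where the Y core match is on the other strand, as CCAAT. Inexact matches were not searched, so this farther match need not be the Y box of HLA-DMB. Of 35116 promoters in the table, 2231 (6.35%) held the X box core, 11240 (32%) the Y box core and 719 (2.05%) both. CD74 held an X box core on the other strand, 149 bases before its Y box match. HLA-DPB1 and HLA-DQA1 held 2 matches to the Y box core each and none to this X box core. Neither start of HLA-DPA1 held a match. A match describes the letters of the reference genome, not the alleles of LP-1 or a bound site.

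Depth, estimated from the steps of low values of genes with a single exon, was 26000000 to 50100000 reads per library, and highest in both SGC-CBP30 libraries. The summed RPKM was 481842 to 498947 per library. All 9 plasma cell markers measured had a mean above 1 RPKM, from 27 to 1501 RPKM, as the labelled origin of the line requires. Of 6 B cell markers 1 passed 1 RPKM (CR2), of 8 of monocytes and dendritic cells 1 (CD68), and of 6 of T and NK cells 1 (NCAM1). PAX5, FCER2 and CD1C were listed at 0. The summed level of the 8 monocyte and dendritic cell markers was 2.64 to 3.20 RPKM with DMSO and 1.38 to 1.73 RPKM with SGC-CBP30, and 1.12 to 1.31 RPKM with DMSO and 0.658 to 1.71 RPKM with CPI203. In the SGC-CBP30 experiment CD68 made up most of it (2.38 and 2.00 against 0.987 and 1.41 RPKM) and was not called (limma, adjusted p = 0.231). The T and NK sum was 1.10 to 1.57 RPKM with DMSO and 0.845 to 0.936 RPKM with SGC-CBP30, and 2.05 to 2.23 RPKM with DMSO and 2.10 to 2.87 RPKM with CPI203. In every library these sums were below the level of the 9 genes other than CIITA, the lowest of which was 14.4 RPKM for HLA-DMB with CPI203. The part of such cells in the class II differences was not tested. In bulk RNA, fewer cells that express a gene cannot be told apart from less RNA per cell.

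CIITA, on chromosome 16 at 10971054 to 11026079 in the deposited positions (hg19 per the submitters' processing notes), was the gene of the group with the lowest level in 3 of 4 groups and with the widest range. In the SGC-CBP30 experiment its level was 53.3 and 52.2 RPKM with DMSO and 13.9 and 13.0 RPKM with SGC-CBP30. In the other experiment it was 17.1 and 14.4 RPKM with DMSO and 2.95 and 2.76 RPKM with CPI203. Within each experiment both treated libraries lay below both DMSO libraries, and the SGC-CBP30 libraries also lay just below the DMSO libraries of the CPI203 experiment. SGC-CBP30 left 25.6% of the DMSO level, from 52.8 ± 0.796 to 13.5 ± 0.649 RPKM (SD, n = 2). CPI203 left 18.1%, from 15.8 ± 1.89 to 2.85 ± 0.134 RPKM (SD, n = 2). On the scale log2(RPKM + 0.1), which understates differences of low genes, these are differences of -1.96 ± 0.08 and -2.42 ± 0.08 (SE of the fit). Only 23 of the 14732 genes tested were lower by more on this scale with SGC-CBP30, and 64 with CPI203. The DMSO pairs themselves were apart by -1.74 ± 0.08, the CPI203 experiment being lower, so that its DMSO cells held 29.9% of the CIITA level of the other DMSO cells. The plot of levels by library shows this spread.

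**Figure D1:**
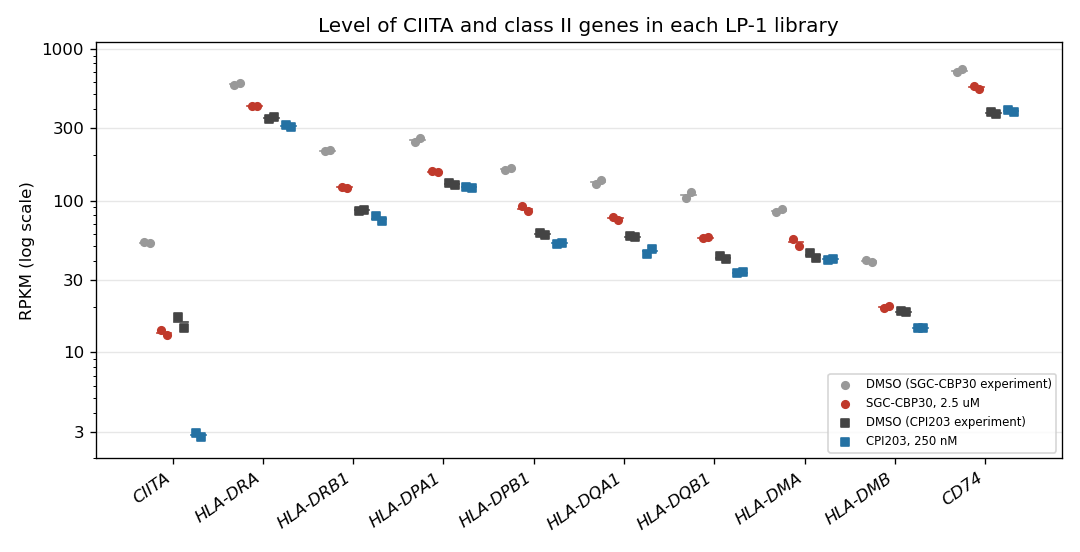
Level in RPKM (log scale) of CIITA and 9 class II genes in each of 8 LP-1 libraries; points are libraries and short lines are group means, 2 libraries per group. CIITA runs from 53.3 RPKM down to 2.76 RPKM, and for every gene both DMSO libraries that accompany SGC-CBP30 lie above the other 6.

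The HLA-DR genes encode the most abundant class II molecule on most antigen-presenting cells. HLA-DRA, the alpha chain, was at 574 and 591 RPKM with DMSO and at 420 and 416 RPKM with SGC-CBP30. It was at 346 and 353 RPKM with DMSO and at 313 and 307 RPKM with CPI203. The treated libraries lay below their DMSO libraries in both experiments, by -0.48 ± 0.03 with SGC-CBP30 and -0.17 ± 0.03 with CPI203 (log2, SE). HLA-DRB1, the beta chain, was at 210 and 215 RPKM with DMSO and at 123 and 121 RPKM with SGC-CBP30. It was at 85.3 and 87.0 RPKM with DMSO and at 78.7 and 72.9 RPKM with CPI203. Again no treated library reached a DMSO library of its experiment, and the differences were -0.80 ± 0.04 and -0.19 ± 0.04. HLA-DRB1 is near-identical to HLA-DRB5 and the pseudogene HLA-DRB6, and how the authors shared reads among them is not stated, so its own level is uncertain.

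The HLA-DP pair overlaps in position, 33032345 to 33048552 for HLA-DPA1 and 33043702 to 33054978 for HLA-DPB1 on chromosome 6, and strand was not stated in the sources used here, so reads of the overlap could go to either gene. HLA-DPA1 was at 244 and 257 RPKM with DMSO and 155 and 154 RPKM with SGC-CBP30, and at 131 and 126 RPKM with DMSO and 123 and 121 RPKM with CPI203. HLA-DPB1 was at 158 and 164 RPKM with DMSO and 91.4 and 84.9 RPKM with SGC-CBP30, and at 61.6 and 59.2 RPKM with DMSO and 52.0 and 52.8 RPKM with CPI203. Both genes were lower in every treated library than in the DMSO libraries of the same experiment. The differences with SGC-CBP30 were -0.69 ± 0.04 for HLA-DPA1 and -0.87 ± 0.04 for HLA-DPB1, against -0.08 ± 0.04 and -0.20 ± 0.04 with CPI203.

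HLA-DQ molecules are the third classical class II pair, and their genes have the copies HLA-DQA2 and HLA-DQB2, which can take some of their reads. HLA-DQA1 was at 129 and 137 RPKM with DMSO and 77.8 and 74.9 RPKM with SGC-CBP30, and at 58.3 and 57.3 RPKM with DMSO and 44.5 and 48.2 RPKM with CPI203. HLA-DQB1 was at 104 and 113 RPKM with DMSO and 56.4 and 57.1 RPKM with SGC-CBP30, and at 43.0 and 41.0 RPKM with DMSO and 33.1 and 33.7 RPKM with CPI203. In both experiments the groups did not overlap. Among the classical genes these were the ones with the larger differences with CPI203, -0.32 ± 0.05 for HLA-DQA1 and -0.33 ± 0.05 for HLA-DQB1, while SGC-CBP30 differed from DMSO by -0.80 ± 0.05 and -0.93 ± 0.05.

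HLA-DM, which loads peptides rather than presenting them, is also a pair of chains. HLA-DMA was at 84.0 and 87.6 RPKM with DMSO and 55.8 and 50.4 RPKM with SGC-CBP30, and at 45.3 and 41.9 RPKM with DMSO and 40.6 and 41.3 RPKM with CPI203. The 2 DMSO libraries of the CPI203 experiment were farther apart from each other than the nearer one was from CPI203. HLA-DMB was at 40.5 and 39.4 RPKM with DMSO and 19.6 and 20.2 RPKM with SGC-CBP30, and at 18.7 and 18.3 RPKM with DMSO and 14.6 and 14.4 RPKM with CPI203. HLA-DMB was thus the gene after CIITA with the lowest remaining share, 49.8% with SGC-CBP30 and 78.3% with CPI203, and it was 2.01-fold and 1.28-fold lower. The differences of HLA-DMA were -0.69 ± 0.06 and -0.09 ± 0.06.

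CD74, on chromosome 5 at 149781199 to 149792492, had the highest level of the group in all 4 groups of libraries. It was at 701 and 730 RPKM with DMSO and 568 and 544 RPKM with SGC-CBP30, which is -0.36 ± 0.03. In the other experiment it was at 386 and 371 RPKM with DMSO and at 393 and 384 RPKM with CPI203. The CPI203 libraries and their DMSO libraries overlapped for CD74, with a difference of 0.04 ± 0.03. The differences of CD74 with SGC-CBP30 and CPI203 turned to 0.097 and -0.42 with all 4 DMSO libraries as controls.

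**Figure D2:**
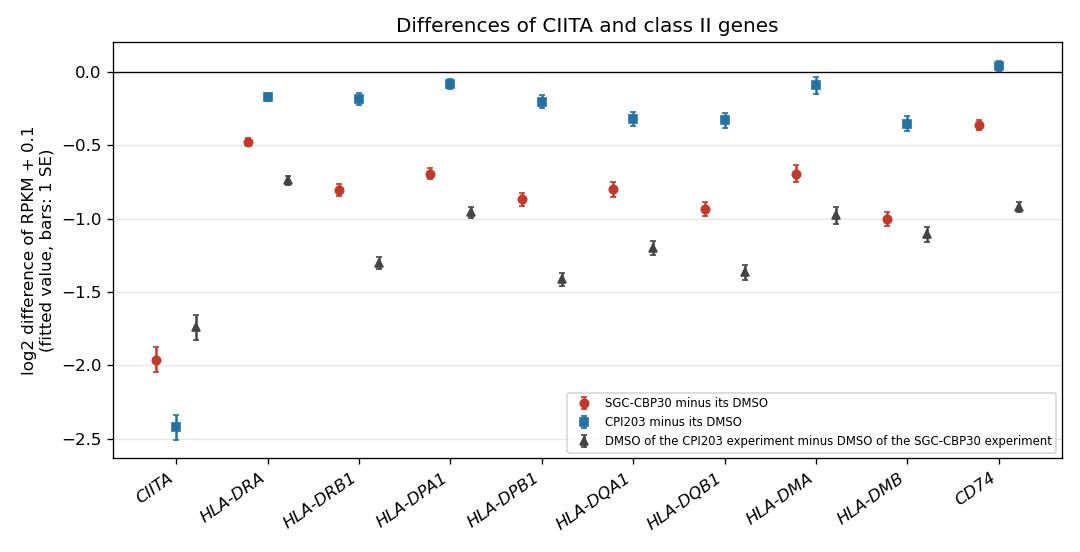
Fitted log2 differences of RPKM + 0.1 for each gene, with bars of 1 SE: SGC-CBP30 from its DMSO, CPI203 from its DMSO, and the DMSO pair of the CPI203 experiment from that of the SGC-CBP30 experiment. All 10 SGC-CBP30 values lie below 0, while CPI203 values lie between -0.35 and 0.04 for every gene but CIITA, at -2.42.

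Counted with the rule used for all genes, an adjusted p under 0.05 in limma and at least a 1.5-fold difference, 8 of the 10 genes were called lower with SGC-CBP30, HLA-DRA and CD74 being the exceptions, and none higher. Over all genes the rule called 7.26% of genes with SGC-CBP30, 3.79% lower and 3.47% higher. With each library scaled to the same median, the share of all calls that were lower moved from 52.2% to 67.5%, and 4.81% of genes were called lower. With CPI203 CIITA was the 1 gene of the 10 called, against 27.8% of all genes (14.4% lower, 13.4% higher). The median difference of the 10 genes was -0.80 with SGC-CBP30 and -0.19 with CPI203, beside 0.07 and -0.01 over all genes tested. Since the genes were chosen on these contrasts, nothing is read from these counts. The share of all genes whose groups of 2 libraries do not overlap was not counted. Nothing is therefore read from the absence of overlap in these genes either.

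The DMSO pairs differed for all 10 genes, each lower in the CPI203 experiment. The 10 genes were called lower in this comparison of DMSO-treated cells, against 7.84% of all genes called, 3.91% lower and 3.93% higher. The median difference was -1.15, beside 0.01 over all genes, and it ran from -0.74 ± 0.03 for HLA-DRA through -1.41 ± 0.04 for HLA-DPB1 to -1.74 for CIITA. For 9 of the 10 genes this difference was larger in size than that of SGC-CBP30 from its DMSO, CIITA being the exception, and both comparisons share the same 2 DMSO libraries. The state of the cells and the handling of each experiment cannot be told apart here. Calls depended on the controls used. With all 4 DMSO libraries as controls for both compounds, 1 of the 10 genes was called with SGC-CBP30 and 6 with CPI203. With SGC-CBP30, 9 of the 10 genes were still at or above the level of the DMSO libraries of the other experiment, from 1.07 times for HLA-DMB to 1.47 times for CD74, and CIITA was at 0.854 times.

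The difference between the compounds, taken as SGC-CBP30 minus its DMSO less CPI203 minus its DMSO, was below 0 for the 9 genes other than CIITA. It ran from -0.31 ± 0.04 for HLA-DRA to -0.67 ± 0.06 for HLA-DPB1, and 6 of the 10 genes were called lower, against 24.5% of all genes called, 9.68% lower and 14.8% higher. Leaving out the second DMSO library of the SGC-CBP30 experiment reduced the 6 to 3. For CIITA the difference was 0.46 ± 0.12, CPI203 leaving the smaller share. With all 4 DMSO libraries as controls this comparison becomes SGC-CBP30 against CPI203 directly, and all 10 differences were above 0, up to 0.76 for HLA-DQB1 among the HLA genes and 2.20 for CIITA.

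The level of CIITA and that of the other genes did not move by the same factor. The summed level of the 9 other genes was 2244 and 2334 RPKM with DMSO and 1568 and 1523 RPKM with SGC-CBP30, or 67.5% of its DMSO, where CIITA kept 25.6%. It was 1175 and 1154 RPKM with DMSO and 1093 and 1076 RPKM with CPI203, or 93.1%, where CIITA kept 18.1%. Between the DMSO pairs the sum was 50.9% and CIITA 29.9%. Per 1000 RPKM of the 9 genes, CIITA was at 23.8 and 22.4 RPKM with DMSO and 8.90 and 8.55 RPKM with SGC-CBP30. It was at 14.6 and 12.5 RPKM with DMSO and 2.70 and 2.56 RPKM with CPI203. At close levels of CIITA, 13.0 to 13.9 RPKM with SGC-CBP30 and 14.4 to 17.1 RPKM with the other DMSO, the sums were 1523 to 1568 and 1154 to 1175 RPKM and did not overlap. All samples were taken at 6 hr, so no course over time was measured.

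**Figure D3:**
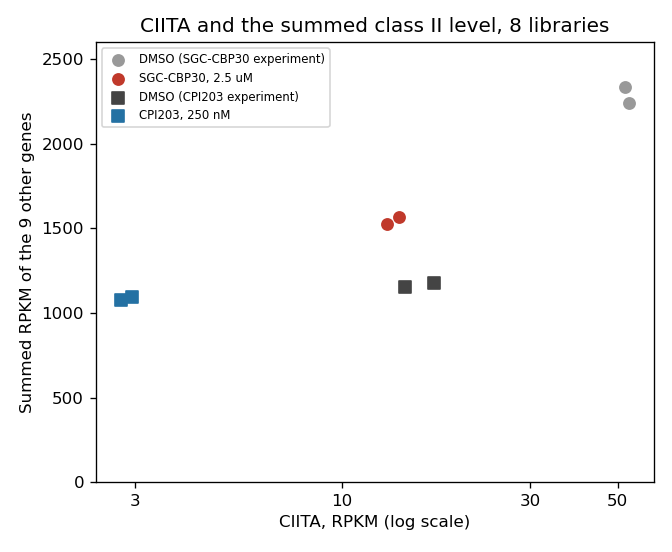
CIITA in RPKM (log scale) against the summed RPKM of the 9 other genes, 1 point per library. CPI203 and its DMSO lie near 1076 to 1175 RPKM in sum while CIITA differs from 2.76 to 17.1 RPKM, and SGC-CBP30 lies at 1523 to 1568 RPKM in sum.

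Alpha and beta chains of one molecule were not lowered equally, a comparison within each library that does not depend on how libraries were scaled. The ratio of HLA-DRA to HLA-DRB1 was 2.73 and 2.75 with DMSO and 3.42 and 3.44 with SGC-CBP30. That of HLA-DPA1 to HLA-DPB1 was 1.54 and 1.57 against 1.70 and 1.82, and that of HLA-DQA1 to HLA-DQB1 was 1.24 and 1.21 against 1.38 and 1.31. The ratio of HLA-DMA to HLA-DMB was 2.07 and 2.22 with DMSO and 2.85 and 2.50 with SGC-CBP30. In all 4 pairs the alpha chain gene kept the larger share. Mean ratios also differed between the DMSO pairs, with no compound, and were higher in the CPI203 experiment. They were 2.74 and 4.05 for HLA-DR, 1.56 and 2.13 for HLA-DP, 1.23 and 1.38 for HLA-DQ, and 2.15 and 2.36 for HLA-DM. The part of the compound in these ratios was not tested. With CPI203 the ratio was above that of its DMSO without overlap for HLA-DP (2.36 and 2.29 against 2.13 and 2.14) and HLA-DM (2.78 and 2.87 against 2.43 and 2.29). It overlapped for HLA-DR (3.98 and 4.22 against 4.05 and 4.05) and for HLA-DQ (1.35 and 1.43 against 1.38 ± 0.0313, SD, n = 2). CD74 to HLA-DRA was 1.22 and 1.23 with DMSO and 1.35 and 1.31 with SGC-CBP30. With groups of 2, an exact permutation test of a single ratio, two-sided, cannot give a p below 0.333.

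The order of levels was nearly fixed: CD74, HLA-DRA, HLA-DPA1, HLA-DRB1, HLA-DPB1 and HLA-DQA1 held places 1 to 6 in all 4 groups. HLA-DQB1 was above HLA-DMA in both groups of the SGC-CBP30 experiment and below it in the CPI203 experiment. With SGC-CBP30 those neighbours, at 56.8 ± 0.502 and 53.1 ± 3.82 RPKM, were within their spread, and so were HLA-DQB1 and HLA-DMA with DMSO of the CPI203 experiment, at 42.0 ± 1.45 and 43.6 ± 2.39 RPKM (SD, n = 2). CIITA was above HLA-DMB with DMSO in the SGC-CBP30 experiment and below it in the other 3 groups. Over the 8 libraries, which share 2 experiments, the correlation of each gene with the mean centred profile of the 10 was from 0.933 for CIITA and CD74 to 0.997 for HLA-DQB1. Each gene is part of that mean, which raises its own correlation, and the genes were chosen on these contrasts, so nothing is read from these values. Among genes outside the group, which are not part of the mean, those most like it were RPL18, HDAC7, SREBF1 and HLA-DOA (r = 0.997 to 0.996). Those most like CIITA were BCL2L1, QPRT, EIF5AP4, VARS and SH2B3 (r = 0.997 to 0.994).

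Other genes of the pathway were taken from lists of 65 symbols, of which 62 were in the table and 49 were tested. The rule called 10 of the 49 with SGC-CBP30, all lower, and 19 with CPI203, 8 lower and 11 higher, against 7.26% and 27.8% of all genes. Their median differences were -0.05 in both comparisons, beside 0.07 and -0.01 over all genes. The 10 became 3 with all 4 DMSO libraries as controls. The plot of pathway genes gives those reported here by their lists.

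Of the other class II genes, 6 of 10 were tested, and 5 fell with SGC-CBP30. HLA-DOA, a chain of HLA-DO, the modulator of HLA-DM, was at 10.6 and 10.6 RPKM with DMSO and 3.44 and 3.66 RPKM with SGC-CBP30. It fell by 1.55 ± 0.10 on the log2 scale (limma, Benjamini-Hochberg adjusted p = 7.14e-06), and by 0.60 ± 0.10 with CPI203 (adjusted p = 0.000629), from 2.45 and 2.58 to 1.70 and 1.56 RPKM. With all 4 DMSO libraries the call with SGC-CBP30 was lost, and that with CPI203 held in 13 of 16 alternatives. HLA-DOB, the partner chain, was at 2.74 and 2.31 RPKM with DMSO and 3.05 and 3.24 RPKM with SGC-CBP30, and its difference of 0.31 did not pass (adjusted p = 0.171). The copies HLA-DRB5, HLA-DRB6, HLA-DQA2 and HLA-DQB2 fell with SGC-CBP30 by 0.74 to 1.12 on the log2 scale (adjusted p = 6.33e-07 to 0.000871) and were not called with CPI203. They share sequence with the genes described and are not independent of them. Between the DMSO pairs HLA-DOA and these 4 copies were also called lower in the CPI203 experiment, HLA-DOA by -2.04. HLA-DRB3, HLA-DRB4 and HLA-DPA2 were listed at 0, and HLA-DPB2 had a mean of 0.182 RPKM.

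Of the 18 promoter factors and coactivators, all were tested and none was called with SGC-CBP30, while 3 fell and 5 rose with CPI203. Of all genes, 7.26% and 27.8% were called. No call among 18 genes is near the first share, so nothing is read from it. With SGC-CBP30, 10 of the 18 were higher and 4 lower at an adjusted p under 0.05 (limma), all under the fold limit. RFX5, the DNA-binding subunit of RFX, was at 135 and 136 RPKM with DMSO and 110 and 110 RPKM with SGC-CBP30, a difference of -0.30 ± 0.04 that passed the p but not the fold (adjusted p = 0.000271). With CPI203 it fell from 112 and 119 to 71.8 and 73.4 RPKM, by 0.67 ± 0.04 (adjusted p = 3.17e-07). RFXAP, another RFX subunit, fell by 0.85 with CPI203 (adjusted p = 3.44e-05), and CARM1, an arginine methyltransferase, by 0.65 (adjusted p = 6.49e-06). RFXANK, the remaining subunit, differed by -0.05 with SGC-CBP30 and -0.23 with CPI203 and was not called.

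The factors that rose with CPI203 were CREB1 by 1.10, NFYA by 0.99, ZXDC by 1.14, KAT2B by 0.91 and NCOA1 by 0.73 on the log2 scale (adjusted p = 8.46e-08 to 9.28e-06). CREB1 binds the X2 part of the X box, NFYA is a subunit of NF-Y on the Y box, ZXDC interacts with CIITA, and KAT2B is an acetyltransferase. NFYB and NFYC, the other NF-Y subunits, were not called with either compound. The genes of the target proteins of SGC-CBP30 were not called either: CREBBP differed by 0.06 ± 0.08 with SGC-CBP30 and 0.17 ± 0.08 with CPI203, and EP300 by 0.30 ± 0.08 and 0.57 ± 0.08.

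**Figure D4:**
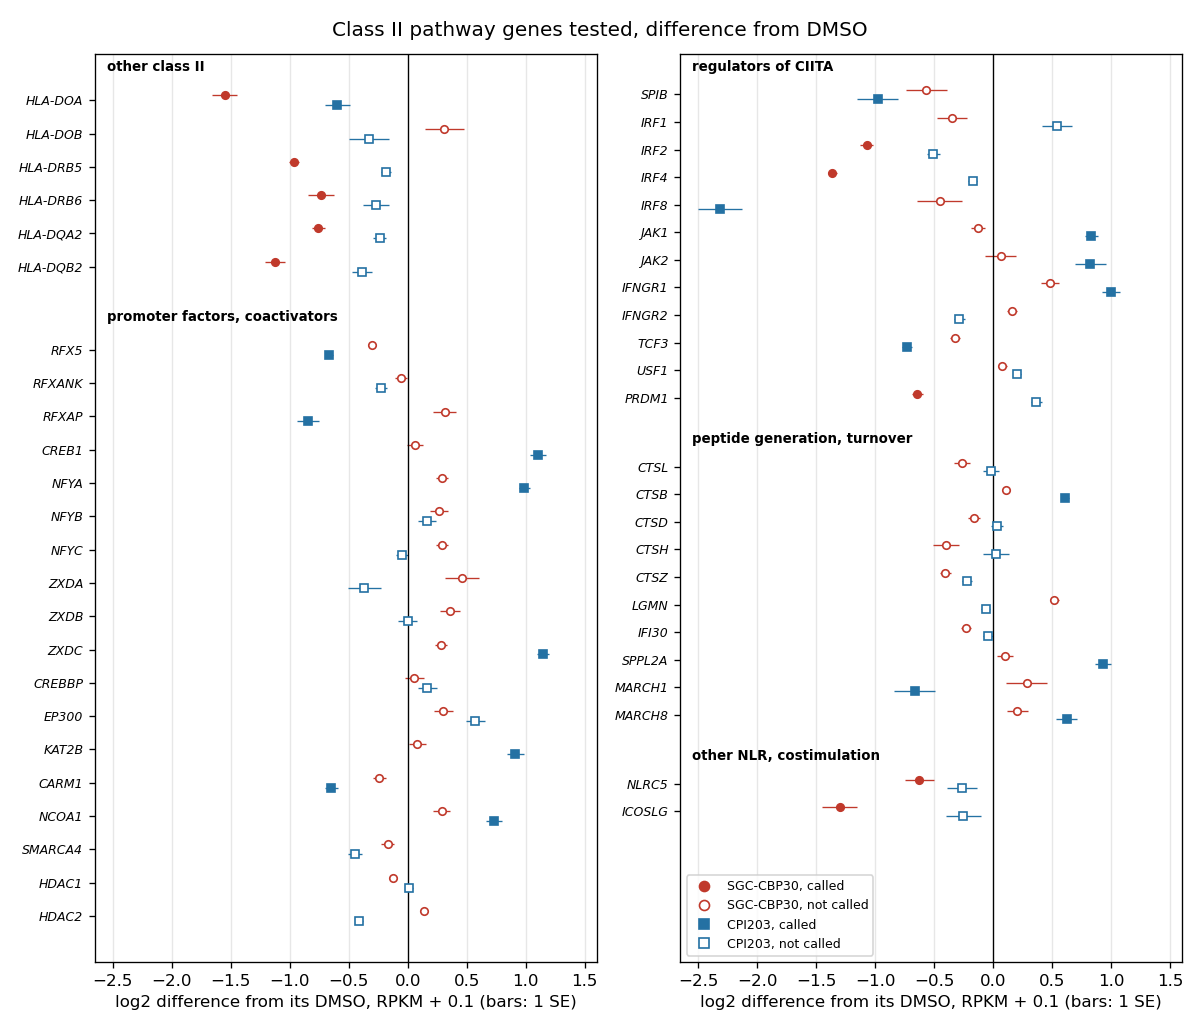
Log2 differences of RPKM + 0.1 from DMSO for pathway genes tested and reported here, with bars of 1 SE; circles are SGC-CBP30, squares CPI203, and filled symbols are genes called. Filled circles all lie below 0, from -0.62 for NLRC5 to -1.55 for HLA-DOA, and filled squares lie on both sides, from -2.31 for IRF8 to 1.14 for ZXDC.

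Of 17 regulators of CIITA transcription, 13 were tested. With SGC-CBP30, 3 fell: IRF4, the plasma cell interferon regulatory factor, from 215 and 211 to 86.2 and 79.5 RPKM (adjusted p = 8.65e-08), IRF2 from 39.1 and 38.4 to 18.5 and 18.3 RPKM (adjusted p = 1.48e-06), and PRDM1 from 47.4 and 49.2 to 31.1 and 30.7 RPKM (adjusted p = 1.08e-05). PRDM1, the gene of the CIITA repressor BLIMP-1, was at 54.2 and 51.7 RPKM with DMSO and 70.0 and 66.3 RPKM with CPI203, a difference of 0.36 ± 0.05 that was under the fold limit. With CPI203 IRF8 fell by 2.31, SPIB by 0.98 and TCF3 by 0.73. IRF8 and SPIB are low, at 1.92 and 1.78 RPKM and 2.32 and 2.47 RPKM with DMSO, and SPIB has a second row in the table that was not used. The interferon gamma pathway genes IFNGR1, JAK1 and JAK2 rose with CPI203 by 1.00, 0.83 and 0.82 (adjusted p = 1.08e-06 to 0.000335). PAX5 was listed at 0, and SPI1, EBF1 and SOCS1 were under 1 RPKM on average. IRF4 did not differ by the rule between the DMSO pairs (0.10 ± 0.04, adjusted p = 0.0738), nor did PRDM1 (0.13 ± 0.05, adjusted p = 0.044). IRF2 was the 1 regulator of the 13 that did, at -0.65 ± 0.05 (adjusted p = 2.43e-05), lower in the CPI203 experiment. This 1 of 13 is near the share of all genes called between the DMSO pairs, 7.84%, so nothing is read from it.

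Peptide generation and turnover genes were not called with SGC-CBP30, 10 of 11 found being tested. This is near the 7.26% of all genes called, so nothing is read from it. By an adjusted p under 0.05 alone (limma), 5 of the 10 were lower and 2 higher. The proteases LGMN, at 220 and 230 RPKM with DMSO and 332 and 313 RPKM with SGC-CBP30, and CTSZ, with a difference of -0.40 ± 0.04, were under the fold limit. With CPI203, SPPL2A, which cuts the last membrane remnant of CD74, rose by 0.93 (adjusted p = 2.02e-06), CTSB by 0.61 and the ligase gene MARCH8 by 0.62, and MARCH1, another ligase that marks class II for turnover, fell by 0.67. MARCH1 was low, at 0.751 and 0.877 RPKM with CPI203. CTSS, the main protease of the invariant chain in B cells, had a mean of 0.742 RPKM and was not tested.

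NLRC5, the relative of CIITA that acts on class I genes, fell with SGC-CBP30 from 12.3 and 13.0 to 7.68 and 8.74 RPKM (adjusted p = 0.00392, called in 13 of 17 alternatives). ICOSLG, a costimulatory ligand, fell from 4.36 and 4.63 to 1.77 and 1.75 RPKM (adjusted p = 0.000189, called in 15 of 16 alternatives). With all 4 DMSO libraries as controls the difference of ICOSLG (-0.49) was under the fold limit. Neither gene was called with CPI203. ICOSLG also fell between the DMSO pairs, by 1.63. CD40, CD80, CD86 and CD1D had means under 1 RPKM.

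Other genes within 100000 bases of a member numbered 44 outside the lists, and 18 were tested. On chromosome 6, 5 of 9 fell with SGC-CBP30, where the rule found a fall in 3.79% of all genes tested. With CPI203, 2 fell and 1 rose. These 3 of 9 are near the 27.8% of all genes called with that compound, so nothing is read from them. The 9 count TAP2 by 2 rows that overlap in position. Those that fell with SGC-CBP30 were HLA-DRB9 by 1.19, PSMB8 by 0.73, PSMB9 by 0.62, TAP1 by 0.63 and one of the rows named TAP2 by 0.66. That TAP2 row is the lower one, at 9.73 and 9.28 RPKM with DMSO. The other TAP2 row, also among the 9, was at 44.9 and 46.6 RPKM with DMSO and 37.3 and 35.8 RPKM with SGC-CBP30. Its difference of -0.32 was under the fold limit, and it was not called with CPI203 or between the DMSO pairs. PSMB8, PSMB9, TAP1 and TAP2 serve class I presentation, as proteasome subunits and as the peptide transporter. Against all 4 DMSO libraries as controls, the differences of PSMB8 (-0.52), PSMB9 (-0.37), TAP1 (-0.48) and TAP2 (-0.26) were under the fold limit, and HLA-DRB9 was still called (-0.68). Between the DMSO pairs HLA-DRB9 (-1.03) and this TAP2 row (-0.79) were called lower in the CPI203 experiment. With CPI203 the TAP2 row fell by 0.60 and XXbac-BPG246D15.8 by 0.97. BRD2, a BET protein gene beside HLA-DMA, was at 157 and 164 RPKM with DMSO and 186 and 189 RPKM with SGC-CBP30, and rose with CPI203 from 138 and 136 to 266 and 263 RPKM (adjusted p = 1.8e-08). Its deposited interval, from 32936436, overlaps the end of HLA-DMA at 32936871. Beside CIITA, 5 of 8 genes were tested: DEXI and CLEC16A rose with CPI203 by 0.64 and 0.63, RP11-876N24.4, RP11-876N24.5 and AC007014.1 fell by 0.83, 0.96 and 0.60, and RP11-876N24.4 also fell with SGC-CBP30 by 0.98. RP11-876N24.4 was called lower between the DMSO pairs too (-1.09), and its call with SGC-CBP30 was lost with all 4 DMSO libraries (-0.44). DEXI overlaps the end of CIITA in the deposited positions. Beside CD74, ARSI fell with both compounds, by 0.79 and 1.52, and TCOF1 and NDST1 fell with CPI203 by 1.46 and 1.65.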

How the data were processed

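The 8 RNA-seq libraries of LP-1 cells form 4 groups of 2. A company sequenced and mapped the total RNA. The authors deposited these data as RPKM, 1 value for each gene in each library, with gene positions. The submitters' processing notes name TopHat 1.4.1, Cufflinks and hg19; the annotation release and strand are not given in the sources used here. The table holds 24 further columns of libraries that were not used.

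Missing values removed 27 genes, 33312 genes were above 0 somewhere, and the 14732 whose mean reached 1 RPKM were tested. limma 3.58.1 in R 4.3.3 (lmFit, contrasts.fit, eBayes, trend on intensity) modelled log2(RPKM + 0.1) with 4 group means, 4 residual and 5.48 prior degrees of freedom, and Benjamini-Hochberg adjustment over all genes tested. Genes with an adjusted p under 0.05 and at least a 1.5-fold difference were called, two-sided. The script was tested on simulated data. The genes described and all lists were chosen with earlier results of these data known.

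Every gene described was named with all its values. Of the pathway lists, genes called in any comparison were named, together with RFX5, RFXANK, RFXAP, CREB1, NFYA, NFYB, NFYC, IRF4 and PRDM1, and of the neighbours within 100000 bases those called. Genes most alike in pattern were the 5 with the highest Pearson correlation of log2(RPKM + 0.1) over 8 libraries. In addition, CREBBP, EP300, LGMN, CTSZ, CTSS and genes listed at 0 or under 1 RPKM were named after their values were seen. A few genes that these choices select are left out of the text and of the plot of pathway genes.

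Depth was estimated from values of genes with a single exon, of which 58.7% to 71.4% were whole reads within 0.1, so counts were not recovered and no count test was run. Other settings tried were all 4 DMSO libraries as controls, a pseudocount of 1, median scaling, a filter at 5 RPKM or none, a fit per experiment, no intensity trend, the replicate number as a block, and each library left out in turn. Tables were made in Python 3.11.15 (pandas 2.3.3), and figures with matplotlib 3.10.9.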

Additional observations from a re-analysis of the deposited data

Results flagged for a closer look

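The response to SGC-CBP30 and the response to CPI203, each against its own DMSO, differed by the rule of the fit (adjusted p under 0.05 in limma and at least 1.5-fold) for 25 of the 49 pathway genes and 18 neighbours tested, against 24.5% of all genes called. The values are log2 differences of SGC-CBP30 less CPI203, with 2 libraries per group, and the controls of each compound come from its own experiment. Among class II genes they were -0.96 for HLA-DOA, -0.78 for HLA-DRB5, -0.74 for HLA-DQB2, -1.42 for the pseudogene HLA-DRB9 and 0.64 for HLA-DOB. That of HLA-DOB held in 2 of 15 alternatives. Among promoter factors and coactivators they were 1.16 for RFXAP, -1.04 for CREB1, -0.70 for NFYA, 0.82 for ZXDA, -0.86 for ZXDC and -0.83 for KAT2B. Among regulators of CIITA they were -0.89 for IRF1, -1.19 for IRF4, 1.86 for IRF8, -0.96 for JAK1, -0.76 for JAK2 and -1.01 for PRDM1. Among the remaining genes of the lists they were -0.83 for SPPL2A, 0.95 for MARCH1 and -1.05 for ICOSLG. Among the neighbours they were -0.72 for BRD2, -0.71 for TAP1, 1.49 for NDST1, 1.18 for TCOF1 and 0.73 for ARSI. HLA-DOA, HLA-DRB5, HLA-DQB2, HLA-DRB9 and ICOSLG also differed between the DMSO pairs, by -2.04, -1.29, -1.51, -1.03 and -1.63, and their part in the difference between compounds was not tested.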

How the results depend on the processing

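Groups of 2 libraries and unknown sharing of reads among HLA copies limit these values, and at 26000000 to 50100000 reads depth limits genes near 1 RPKM more than the class II genes. With all 4 DMSO libraries as controls, 3 pathway genes in place of 10 and 1 class II gene in place of 8 were called with SGC-CBP30, and 6 class II genes in place of 1 with CPI203. Under that setting the difference between the compounds turned in sign for HLA-DRA (0.43), HLA-DQA1 (0.72), CD74 (0.52), HLA-DRB1 (0.69), HLA-DPA1 (0.35), HLA-DPB1 (0.75), HLA-DQB1 (0.76), HLA-DMA (0.37), HLA-DMB (0.45), HLA-DOA (1.08), HLA-DRB5 (0.51), HLA-DRB6 (0.22), HLA-DQA2 (0.77), HLA-DQB2 (0.78), IRF2 (0.089), ICOSLG (0.58), RP11-876N24.4 (0.94), PSMB9 (0.17), PSMB8 (0.087) and TAP2 (0.73), and so did SGC-CBP30 against DMSO for CD74 (0.097), CARM1 (0.024) and CTSB (-0.080) and CPI203 against DMSO for CD74 (-0.42). By construction that setting compares SGC-CBP30 with CPI203 across experiments. With a mean of at least 5 RPKM, 10 pathway genes in place of 19 differed between the compounds, fewer genes being tested. Over all genes, a pseudocount of 1 gave 667 calls with SGC-CBP30 in place of 1070 (4.53% in place of 7.26%), and that filter gave 505, 2590 in place of 4095 with CPI203, 2358 in place of 3609 between the compounds and 518 in place of 1155 between the DMSO pairs. Without each library in turn, class II genes called were 8 with SGC-CBP30, 1 with CPI203, 10 between the DMSO pairs and 3 to 6 between the compounds, and pathway genes called were 9 to 10, 18 to 19, 7 to 8 and 18 to 20. With the replicate number as a block, 10, 19, 18 and 7 pathway genes were called with SGC-CBP30, with CPI203, between the compounds and between the DMSO pairs, and 8, 1, 6 and 10 class II genes. The study calls its DMSO controls paired but does not say which libraries form a pair, and the main fit was unpaired. The numbers were not shown to pair libraries: deviations of same-numbered libraries correlated at -0.172 in the SGC-CBP30 experiment and -0.0395 in the CPI203 experiment over 8298 genes. The crossed pairing of the SGC-CBP30 experiment, added after the data were seen, gave 10, 19, 18 and 7. Of the other single values recomputed, 3547 were counted as unchanged. A further 159 lost and 39 gained the threshold on the adjusted p, and 84 moved by more than the spread. The unchanged values include some that turned in sign without passing that threshold in either fit. An example is CREB1 with SGC-CBP30, at 0.059 in the main fit and -0.018 with median scaling. For the genes described, which were given no p-values, unchanged means a move within the spread.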
